A study of Rattus norvegicus with 6 samples.

Results

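The genes described here are 47 genes that license, fire and copy DNA replication origins or make the nucleotides for it. They were chosen by name from the 34156 genes of the count table as known parts of the pathway, with earlier results of these data known. All 47 passed the filter on low counts (at least 10 counts in at least 3 libraries), as did 13614 genes in all. Cdc6 and Pole2 passed it only through the libraries without EMO. Their counts with EMO were 3, 7 and 2 for Cdc6 and 8, 8 and 5 for Pole2. The libraries were made from rat RA-FLS, fibroblast-like synoviocytes of rheumatoid arthritis, which line the joint and are labelled wild type (WT). In the TNF-α group, 3 libraries came from cells given 10 ng/mL TNF-α, an inflammatory cytokine. In the TNF-α+EMO group, 3 libraries came from cells given the same TNF-α together with 80 μmol/L emodin (EMO), an anthraquinone of rhubarb. All 6 libraries therefore carry TNF-α, and no untreated library is compared here. The labels give the time as day 5 and the study's methods give 24 h of treatment. The cells were bought from a supplier and, by the labels, passaged. The study's methods call the 3 libraries of a group biological replicates, and the labels do not say whether they came from separate cultures. The p-values below set the difference between the groups against the spread between these libraries.

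A replication origin is prepared in G1, when the origin recognition complex (ORC) together with Cdc6 and Cdt1 loads the MCM2-7 ring onto DNA, and geminin keeps Cdt1 in check afterwards. In S phase, the kinase Cdc7-Dbf4 and cyclin-dependent kinases switch the ring on, Cdc45 and the GINS complex join it to form the CMG helicase, and polymerases copy the strands on a sliding clamp, PCNA, that is put in place by the clamp loader RFC. Many of these genes are classical targets of the E2F transcription factors and are transcribed mainly in dividing cells, with a peak around the entry into S phase.

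Libraries held 16813322 to 17794455 counts. More genes reached 10 counts in the TNF-α libraries (13342 to 13365) than in the TNF-α+EMO libraries (12566 to 12662). The shift between the groups was broad: 41.4% of the tested genes were lower and 39.4% were higher with EMO at an adjusted p under 0.05, and the first principal component held 93.8% of the variance. TNF-α+EMO replicate 3 stood further from its group than any other library, with a chi-square per gene of 25.2 and 16.1 against replicates 1 and 2, beside 6.63 between those and 4.72 to 5.85 among the TNF-α libraries. Of 12 synoviocyte markers, 11 were in the table. Their summed normalized counts were 210600 to 231110 with TNF-α and 35263 to 38023 with EMO, and all 8 that were tested fell, from Vim (log2 fold change -0.92) to Col3a1 (-8.76). The defining markers Prg4, Thy1 and Pdpn had at most 7 counts in any library. The synovial identity therefore rests on the study's description of the cells. With TNF-α, the listed markers with ample counts were Col1a1, Col3a1, Pdgfra, Pdgfrb, Cdh11, S100a4 and Vim. These do not by themselves tell synovial from other fibroblasts. With EMO, normalized counts were 31016, 33600 and 32544 for Vim and 3666, 3757 and 3705 for Col1a1. They were 33.0, 27.6 and 19.4 for Col3a1 and 44.4, 44.0 and 32.6 for Cdh11. Lymphocyte markers summed to at most 1.95 normalized counts with TNF-α and 3.07 with EMO, and endothelial markers to 14.6 to 23.5 and 11.2 to 12.4. Epithelial markers, almost wholly Krt8, summed to 9950 to 10806 and 1968 to 2304. Macrophage and leukocyte markers summed to 1199 to 1301 and 747 to 818. Of these, Cd14 held 1141, 1029 and 1110 with TNF-α and 465, 520 and 546 with EMO. Cd68 held 152, 168 and 138 with TNF-α and 267, 245 and 258 with EMO. Of the 8 macrophage and leukocyte markers, Cd14 fell (log2 fold change -1.10), Cd68 rose (0.75), Itgam rose from 1, 0 and 0 to 12, 10 and 14 counts, and the other 5, Ptprc, C1qa and C1qb among them, had at most 5 counts in any library. In bulk libraries, fewer cells of a kind and less RNA per cell cannot be told apart, and the part of cell makeup in the results below was not tested.

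Replication genes were mostly lower with EMO, and unequally so. At an adjusted p under 0.05 (edgeR quasi-likelihood test, Benjamini-Hochberg over all tested genes), 46 of the 47 genes passed, beside 80.9% of all tested genes. Of them 42 fell, which is 89.4% of the replication genes beside 41.4% of all tested genes. The 4 that rose were Orc2, Orc3, Pold3 and Rfc4 (8.51%, beside 39.4%), and Tyms alone did not pass. With a fold over 2 as well, 31 genes were lower (66.0%, beside 27.8%) and 2, Orc2 and Orc3, were higher (beside 19.5%). Their median was a log2 fold change of -1.59, that is a 3.01-fold lower level, beside -0.01 over all tested genes. Of the genes that fell, 9 did so by over 10-fold, 10 by 4 to 10-fold, 12 by 2 to 4-fold and 11 by less than 2-fold. The 9 include Cdc6 and Pole2, which passed the filter only through the TNF-α libraries. Without TNF-α+EMO replicate 3, the library that stood apart, 42 genes fell, 4 rose, 30 were lower by over 2-fold and the median was -1.63. All 3 libraries of one group lay outside the other group for 41 genes in the lower direction (42.5% of all tested genes) and 4 in the higher direction (40.3%; 82.9% in either), and Dbf4 and Tyms were the genes whose groups overlapped. An exact permutation test of a gene in 3 and 3 libraries cannot give a p below 0.1, so the p-values rest on the spread that edgeR shares across genes.

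**Figure D1:**
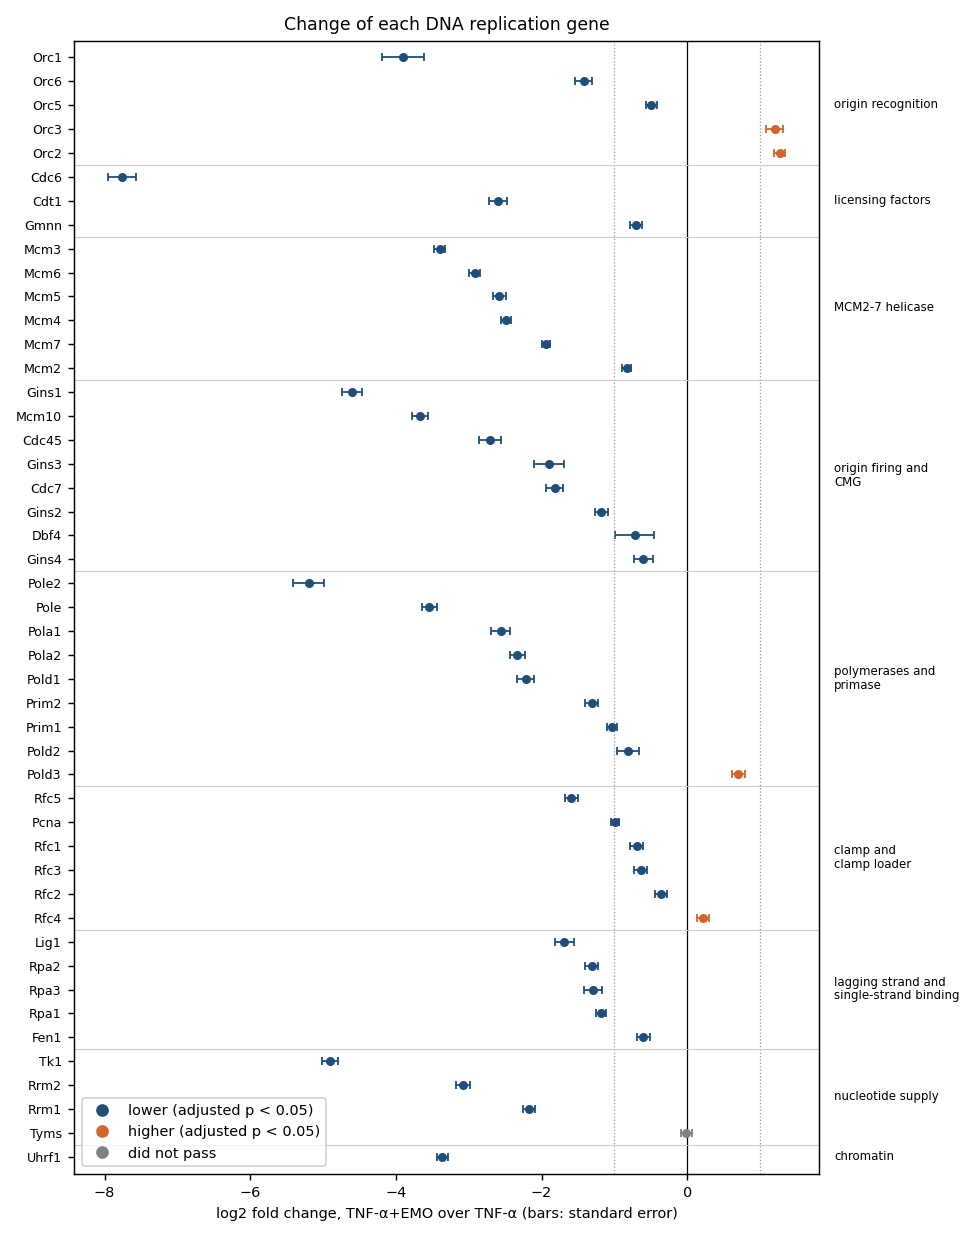
Log2 fold change (TNF-α+EMO over TNF-α, horizontal axis) of each of the 47 replication genes, grouped by role, with bars for the standard error and dotted lines at a fold of 2; blue marks genes lower, orange higher and grey not past an adjusted p of 0.05. Cdc6 lies furthest to the left at -7.76, and Orc2 furthest to the right at 1.27.

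The words TTTGGCGC and TTTCCCGC, forms of the E2F site, were looked for on both strands of the promoter windows of RefSeq (assembly GRCr8, from 250 bases before to 50 bases after each gene's start). Coordinates of these windows are of GRCr8 and those of the genes elsewhere are of Rnor_6.0, the build named in the submitters' processing notes. A window was at hand for 41 of the 47 genes and not for Orc1, Cdc6, Mcm4, Gins4, Rpa3 and Rrm2. Of the 41 genes, 17 (41.5%, Wilson 95% interval 27.8 to 56.6%) held at least 1 of the words, beside 3.26% (2.91 to 3.64%) of 9177 tested genes with a window and 1.45% of 33469 windows in all. The following stretches, written 5′ to 3′ on the transcribed gene's own strand, show the words, or their reverse complements GCGCCAAA and GCGGGAAA, in capitals. They are from 6 genes that fell by over 5-fold with EMO and 3 that did not fall by over 2-fold, so that both kinds can be read side by side.
Pole2 (chr6:93435334-93435363, minus strand): cttcggcggtgGCGCCAAAtctcaaacatg
Gins1 (chr3:160184884-160184913, plus strand): ggttaagcctaTTTGGCGCcaaagagagga
Pole (chr12:52053646-52053675, minus strand): cacatgagagcGCGCCAAAttttcccggga
Mcm3 (chr9:30733734-30733763, minus strand): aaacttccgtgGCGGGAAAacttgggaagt
Mcm6 (chr13:42404473-42404502, minus strand): tggcgtctgctTTTGGCGCgaaattagcgt
Cdt1 (chr19:67529270-67529298, plus strand): ggaagtagcttTTTGGCGCcatggcgcag
Gmnn (chr17:40729861-40729883, plus strand): gttcgggtcgtTTTGGCGCggtt
Orc3 (chr5:53977871-53977900, minus strand): ccatgcctcctTTTCCCGCaagccccgcct
Pold3 (chr1:163868763-163868791, minus strand): gagcgaagctgTTTCCCGCcggcgggagc
The other genes with a word were Gins3, Mcm5, Mcm7, Orc5, Pola1, Rfc3, Tyms and Uhrf1. In Gins1, both orientations of TTTGGCGC overlap at the same place.

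At a fold of 2, the share of genes with a word was similar on both sides. Of the genes lower by over 2-fold, 11 of 26 held one (42.3%, 25.5 to 61.1%), and of the other replication genes, 6 of 15 did (40.0%, 19.8 to 64.3%). Divided further by the fold classes above, which was done after the data were seen, 5 of 7 genes lower by over 10-fold held a word, 4 of 8 at 4 to 10-fold and 2 of 11 at 2 to 4-fold. Their Wilson intervals, 35.9 to 91.8%, 21.5 to 78.5% and 5.14 to 47.7%, overlap. With TTTGGCGC alone, the shares on the sides of the 2-fold line were 26.9% (13.7 to 46.1%) and 13.3% (3.74 to 37.9%). TTTCCCGC alone leaned the other way, at 19.2% (8.51 to 37.9%) and 26.7% (10.9 to 52.0%). Both words without their first T, the 7-letter words, gave 57.7% (38.9 to 74.5%) and 60.0% (35.7 to 80.2%). Among tested genes at large, 3.66% of those lower by over 2-fold and 3.11% of the rest held TTTGGCGC or TTTCCCGC. With TTTGGCGC alone, these shares were 1.21% and 0.957%. As a description, the 17 genes with a word had a median log2 fold change of -2.56 and the 24 without one of -1.25. These medians were -2.6 and -1.25 with TTTGGCGC alone and -1.9 and -1.36 with TTTCCCGC alone. They were closer with the 7-letter words, at -1.86 and -1.31. Genes with a word ran from Pole2 (log2 fold change -5.20) to Orc3, which rose. Mcm5 and Tyms are shown at greater length as a gene that fell and one that did not pass. Mcm5, an MCM2-7 subunit, fell 5.96-fold and holds 2 words in the 250 bases before its start, while Tyms, thymidylate synthase, has a perfect TTTGGCGC near its start and is the gene that did not pass the test (values below). Those 250 bases, with the words in capitals, read as follows.
Mcm5 (chr19:13488563-13488812, plus strand): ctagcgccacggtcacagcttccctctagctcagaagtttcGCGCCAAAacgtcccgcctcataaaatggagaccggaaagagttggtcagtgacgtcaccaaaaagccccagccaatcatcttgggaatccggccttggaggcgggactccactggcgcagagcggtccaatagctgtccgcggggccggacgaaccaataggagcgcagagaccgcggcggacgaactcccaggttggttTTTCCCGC
Tyms (chr9:120776084-120776333, minus strand): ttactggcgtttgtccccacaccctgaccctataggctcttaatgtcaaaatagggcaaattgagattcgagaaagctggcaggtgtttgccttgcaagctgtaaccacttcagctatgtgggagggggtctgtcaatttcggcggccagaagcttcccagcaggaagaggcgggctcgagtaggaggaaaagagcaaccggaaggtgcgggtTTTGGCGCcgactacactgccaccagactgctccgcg
CCAAT, the word bound by NF-Y and searched after the data were seen, was in 56.1% of the 41 windows (41.0 to 70.1%), beside 39.6% of tested genes. It was in 18 of the 26 genes lower by over 2-fold (69.2%, 50 to 83.5%) and 5 of the 15 others (33.3%, 15.2 to 58.3%), and these intervals overlap. A word is a match of letters only. It shows neither that a factor binds nor that it does not.

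**Figure D2:**
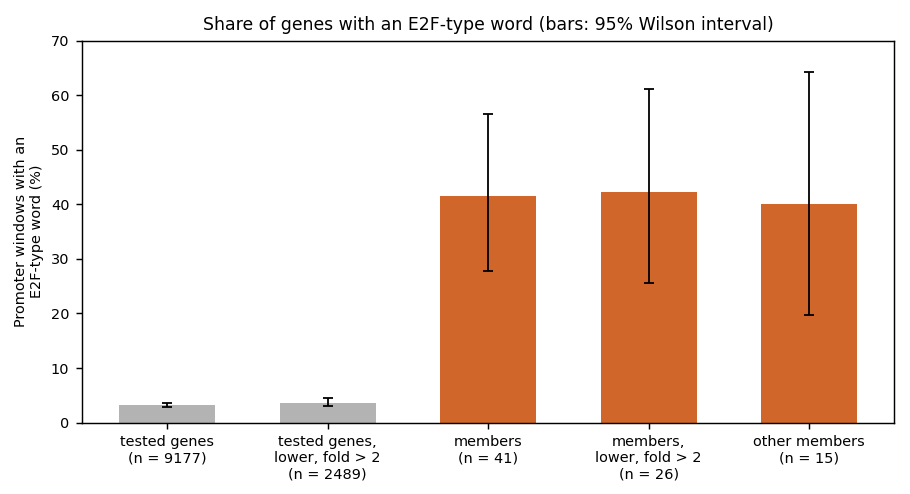
Share of genes (%, vertical axis) whose RefSeq promoter window holds TTTGGCGC or TTTCCCGC on either strand, for tested genes (grey) and the replication genes (orange), with 95% Wilson intervals. The bars of the replication genes stand at 41.5, 42.3 and 40.0%, those of tested genes at 3.26 and 3.66%.

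The origin recognition complex, which marks origins and starts loading, held genes that fell and genes that rose. Of its 5 listed subunits, 3 fell (60.0%, beside 41.4% of all tested genes) and 2 rose (40.0%, beside 39.4%). Orc1 (chromosome 5, 128190708 to 128210445), the subunit that is made and destroyed within each cycle, had 261, 285 and 269 normalized counts in TNF-α replicates 1 to 3 and 10.3, 14.3 and 29.5 in TNF-α+EMO replicates 1 to 3. The EMO libraries lay far below all TNF-α libraries, although replicate 3 held more Orc1 than the other two. The fall was 14.9-fold (log2 fold change -3.90, standard error (SE) 0.29, adjusted p = 3.9e-07, edgeR), with a log2 fold change of Orc1 of -4.43 without replicate 3. Orc2 (chromosome 9, 65350627 to 65387169), a core subunit, went the other way. It had 629, 690 and 608 normalized counts with TNF-α and 1609, 1637 and 1415 with EMO, without overlap, and rose 2.42-fold (log2 fold change 1.27, SE 0.08, edgeR adjusted p = 9.7e-08). Orc3, which pairs with Orc2 in the core, had 172, 197 and 214 normalized counts with TNF-α and 465, 474 and 397 with EMO. It also rose without overlap, 2.29-fold (log2 fold change 1.2, SE 0.12, edgeR adjusted p = 3.4e-06). Orc5 and Orc6 fell with log2 fold changes of -0.49 (SE 0.08) and -1.42 (SE 0.12). The ratio of Orc2 to Orc1 per length lay between 1.92 and 2.06 with TNF-α and was 133, 97.1 and 40.7 with EMO.

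All 3 licensing factors fell (beside 41.4% of all tested genes), and Cdc6 fell furthest of the 47 genes. Cdc6 (chromosome 10, 86819472 to 86833402), the ATPase that helps ORC to load MCM2-7, had 937, 937 and 941 counts with TNF-α and 3, 7 and 2 counts with EMO. It was almost without reads in each EMO library, close to the limit of 3 counts that this depth can resolve in a library. The fitted fall was 217-fold (log2 fold change -7.76, SE 0.19, edgeR adjusted p = 4.9e-11), and the ratio of summed counts, 2815 against 12 and scaled by library size, was 224 with an exact 95% counting interval of 128 to 433. Cdt1 (chromosome 19, 55381565 to 55386511), the partner of Cdc6 that brings MCM2-7 to the origin, had 1144, 988 and 983 normalized counts with TNF-α and 191, 179 and 145 with EMO. The groups did not overlap, and Cdt1 fell 6.05-fold (log2 fold change -2.60, SE 0.12, edgeR adjusted p = 4.0e-09). Gmnn (chromosome 17, 42302540 to 42310783), which encodes geminin, had 1018, 1043 and 970 normalized counts with TNF-α and 650, 582 and 633 with EMO. The inhibitor fell less than the factor it binds, 1.63-fold (log2 fold change -0.70, SE 0.08, edgeR adjusted p = 7.8e-06). Cdt1 per Gmnn, compared per length, went from 0.591, 0.498 and 0.533 to 0.154, 0.162 and 0.12.

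The 6 subunits of the MCM2-7 ring, which are needed in equal number, all fell (beside 41.4% of all tested genes), by different amounts. Mcm3 (chromosome 9, 26914057 to 26932201) had 2967, 2857 and 2910 normalized counts with TNF-α and 259, 308 and 258 with EMO. It was the lowest of the 6 in log2 fold change and fell 10.6-fold (-3.40, SE 0.08, edgeR adjusted p = 3.9e-11). Mcm6, Mcm5, Mcm4 and Mcm7 fell 7.59, 5.96, 5.61 and 3.85-fold. Mcm2 (chromosome 4, 120825699 to 120840111), the subunit that also binds histones, had 6664, 6448 and 6220 normalized counts with TNF-α and 3504, 3495 and 3911 with EMO. Its groups were also apart, yet it fell only 1.77-fold (log2 fold change -0.83, SE 0.06, edgeR adjusted p = 4.0e-07). The Mcm2 level per length was 2.02, 2.03 and 1.92 times that of Mcm3 with TNF-α and 12.2, 10.2 and 13.6 times with EMO. Across the 6 subunits, the highest level per length (Mcm2, 115 CPM per kilobase, where CPM is a count scaled to a common library size) was 5.34 times the lowest (Mcm5, 21.5) with TNF-α, and 18 times with EMO (64.9 against 3.61). Mcm7 shares its span with Mir25, which had at most 13 counts.

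**Figure D3:**
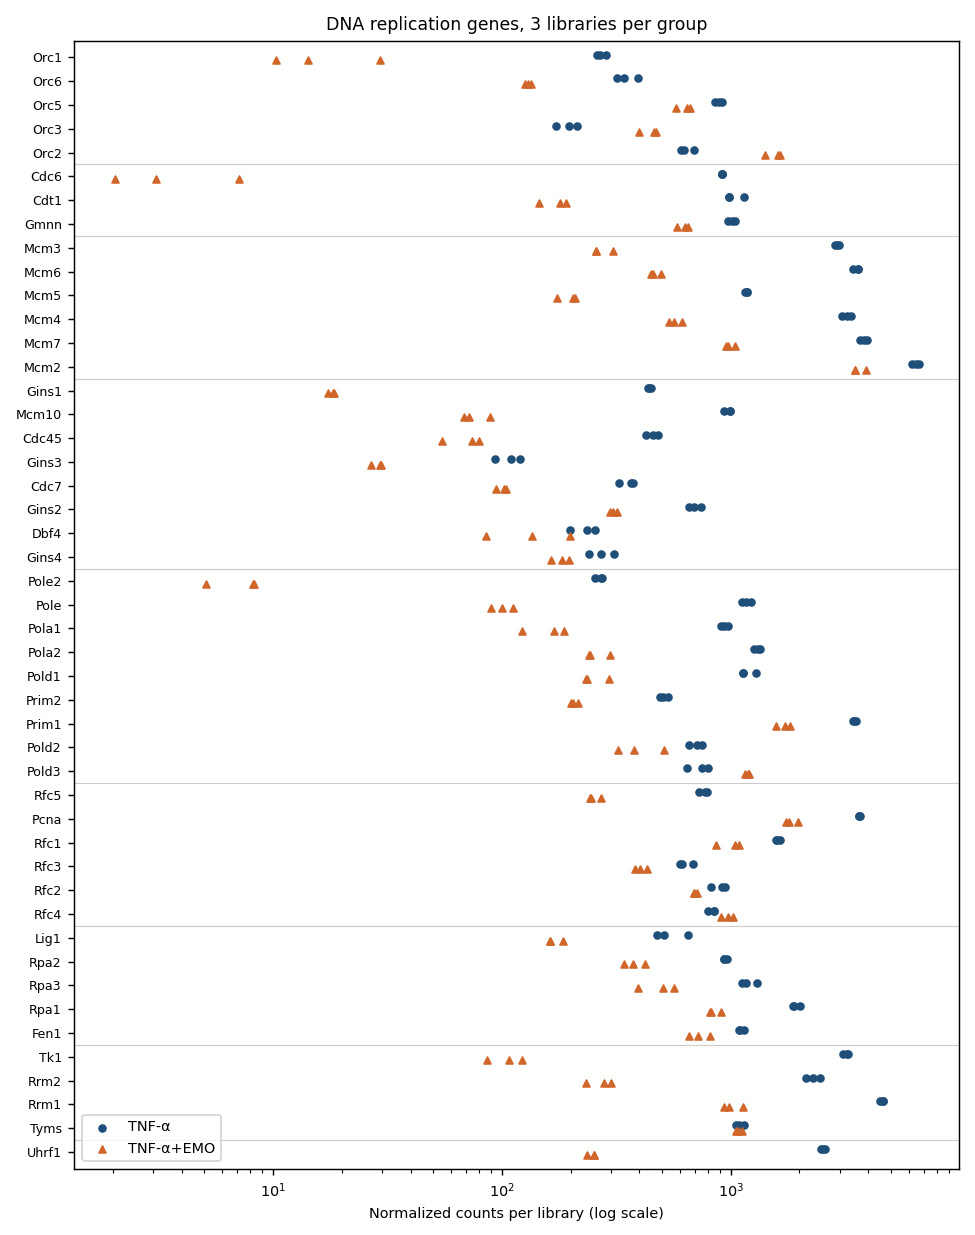
Normalized counts of the 47 genes in each library (horizontal axis, log scale), with blue circles for the 3 TNF-α and orange triangles for the 3 TNF-α+EMO libraries. The groups lie apart for every gene except Dbf4 and Tyms, and the triangles of Cdc6 lie between 2.04 and 7.16.

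All 8 genes of origin firing and the CMG helicase fell (beside 41.4% of all tested genes), with a median log2 fold change of -1.86. Gins1 (chromosome 3, 146695344 to 146716816), a GINS subunit, had 434, 442 and 448 normalized counts with TNF-α and 18.6, 17.4 and 18.3 with EMO. The libraries were tight within each group, and Gins1 fell 24.2-fold (log2 fold change -4.60, SE 0.14, edgeR adjusted p = 1.8e-10). The other 3 GINS subunits fell far less: Gins3 3.74-fold, Gins2 2.26-fold and Gins4 1.51-fold. Gins4 (chromosome 16, 73584521 to 73596793) had 241, 272 and 309 normalized counts with TNF-α and 183, 165 and 196 with EMO. Its groups were apart by a narrow gap (log2 fold change -0.60, SE 0.13, edgeR adjusted p = 0.0017). Mcm10, a factor that activates CMG and tethers polymerase α, fell 12.7-fold. Cdc45, the third component of CMG, fell 6.54-fold, and Cdc7, the kinase that phosphorylates MCM2-7, fell 3.52-fold. Dbf4, the subunit that activates Cdc7, was the least certain of the genes that fell. It had 237, 198 and 256 normalized counts with TNF-α and 198, 136 and 85.6 with EMO, and the groups overlapped. Its log2 fold change was -0.72 (SE 0.27, edgeR adjusted p = 0.031), and the adjusted p was 0.057, 0.068 and 0.09 without TNF-α replicate 1, TNF-α replicate 3 and TNF-α+EMO replicate 2. Without TNF-α+EMO replicate 3, the log2 fold change of Dbf4 was -0.44 (edgeR adjusted p = 0.024).

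Of the 9 genes of the polymerases and primase, 8 fell (88.9%, beside 41.4% of all tested genes) and 1 rose (11.1%, beside 39.4%). Pole2 (chromosome 6, 91494393 to 91518996), the second subunit of the leading-strand polymerase ε, had 272, 275 and 257 normalized counts with TNF-α and 8.25, 8.19 and 5.09 with EMO. It was left with 5 to 8 counts in the EMO libraries and fell 36.7-fold (log2 fold change -5.20, SE 0.21, edgeR adjusted p = 1.8e-09). Pole, the catalytic subunit of the same enzyme, fell 11.6-fold. Pola1 and Pola2, the large subunits of polymerase α that extends the primers, fell 5.89 and 5.04-fold, whereas Prim2 and Prim1, the primase subunits of the same complex, fell 2.48 and 2.04-fold. Pold1, the catalytic subunit of the lagging-strand polymerase δ, fell 4.65-fold, and Pold2 fell 1.75-fold. Pold3 (chromosome 1, 165083622 to 165123455), an accessory subunit of polymerase δ, had 648, 795 and 750 normalized counts with TNF-α and 1209, 1197 and 1155 with EMO. It rose 1.62-fold without overlap between the groups (log2 fold change 0.70, SE 0.09, edgeR adjusted p = 1.8e-05). The values of Pold2 are uncertain: Aebp1 on the opposite strand overlaps it, with 1987 to 2478 counts with TNF-α and 1136 to 1273 with EMO, and the strand setting of the counting is not given in the sources used here. Pola2 overlaps Cdc42ep2 on the same strand, which had 141 to 171 and 36 to 45 counts.

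Most changes of the sliding clamp and its loader were small, with a median log2 fold change of -0.67. Of the 6 genes, 5 fell (83.3%, beside 41.4% of all tested genes) and 1 rose (16.7%, beside 39.4%). Pcna (chromosome 3, 124880698 to 124884570) had 3655, 3631 and 3674 normalized counts with TNF-α and 1961, 1806 and 1740 with EMO. The clamp gene fell 1.99-fold, just short of the fold of 2 (log2 fold change -0.99, SE 0.06, edgeR adjusted p = 6.6e-08). It was the highest of the 47 genes per length in both groups, at 183 ± 1.06 and 92.1 ± 5.69 CPM per kilobase (SD, n = 3). Among the clamp loader subunits, Rfc5 (chromosome 12, 44931494 to 44941324) had 731, 791 and 770 normalized counts with TNF-α and 242, 245 and 273 with EMO. It fell 3.01-fold (log2 fold change -1.59, SE 0.09, edgeR adjusted p = 2.1e-08), and was the 1 gene of this group lower by over 2-fold (16.7%, beside 27.8% of all tested genes). Rfc1, the large subunit, and the small subunits Rfc3 and Rfc2 fell with log2 fold changes of -0.69, -0.64 and -0.36. Rfc4 (chromosome 11, 81358592 to 81373043), another small subunit, had 849, 800 and 849 normalized counts with TNF-α and 1022, 973 and 909 with EMO. The groups did not overlap but were close, at a log2 fold change of 0.22 (SE 0.08, edgeR adjusted p = 0.021). This rise did not pass when the scaling was by total counts (log2 fold change 0.10, adjusted p = 0.25) or upper quartile (0.17, adjusted p = 0.056), nor without TNF-α replicate 1, 2 or 3 (adjusted p = 0.15, 0.28 and 0.14).

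All 5 lagging strand and single-strand binding genes fell (beside 41.4% of all tested genes), by 1.52 to 3.22-fold. Lig1 (chromosome 1, 75356220 to 75394758), the ligase that seals Okazaki fragments, had 651, 511 and 478 normalized counts with TNF-α and 186, 162 and 162 with EMO. The groups were well apart, and it fell 3.22-fold (log2 fold change -1.69, SE 0.13, edgeR adjusted p = 4.6e-07). LOC100911727, a gene beside Lig1 on the same strand of chromosome 1, had 69, 500 and 230 counts with TNF-α and 183, 162 and 82 with EMO. It is described in the table as similar to the product of Lig1, so reads may be divided between them, and the log2 ratio of the group means was -1.35 for the sum of both genes. Fen1 (chromosome 1, 226251518 to 226255886), the nuclease that trims the flaps between Okazaki fragments, had 1145, 1095 and 1088 normalized counts with TNF-α and 718, 659 and 816 with EMO. It fell 1.52-fold (log2 fold change -0.60, SE 0.09, edgeR adjusted p = 7.3e-05). The 3 subunits of RPA, which coats single-stranded DNA, moved as a set, with log2 fold changes of -1.31 (Rpa2), -1.29 (Rpa3) and -1.18 (Rpa1). They spanned 0.12 on the log2 scale, where the 6 MCM2-7 subunits spanned 2.58 and the 5 ORC subunits 5.17.

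**Figure D4:**
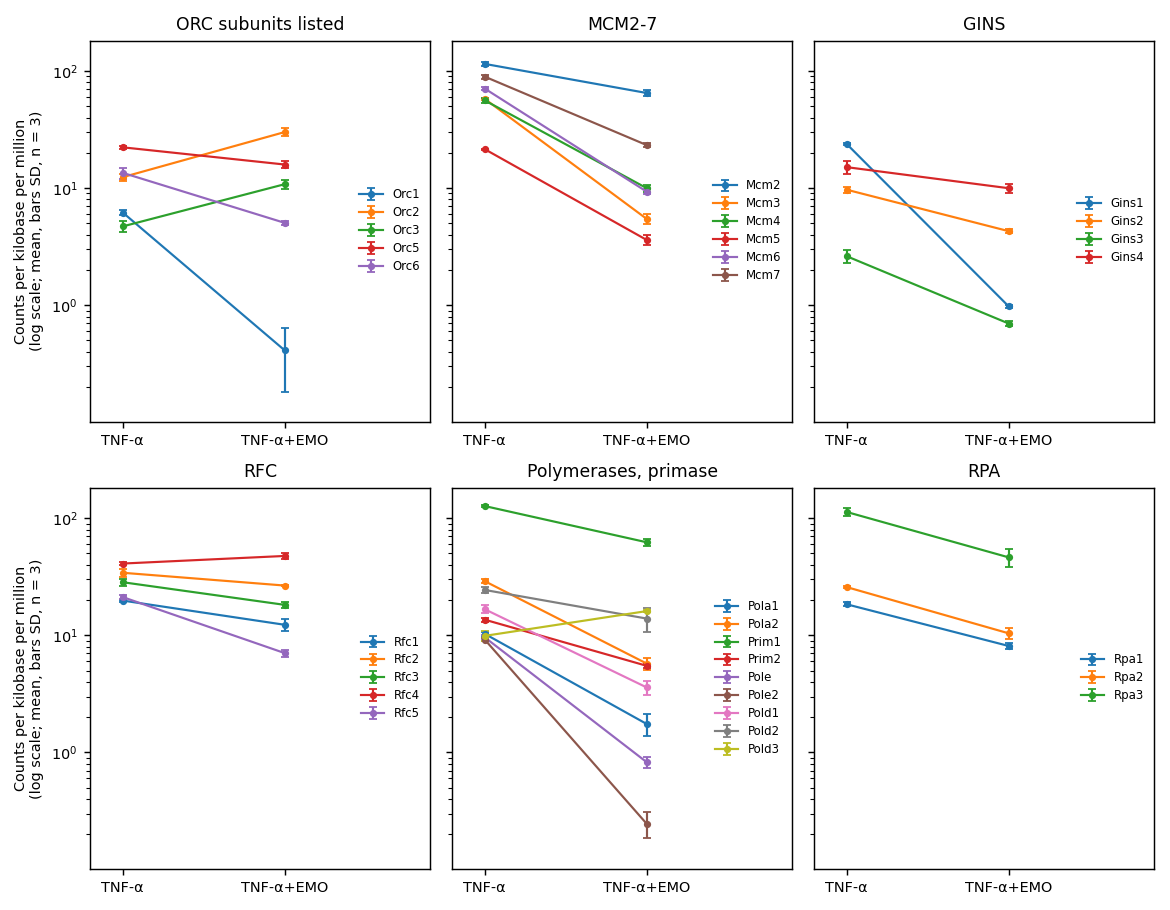
Mean level per length (CPM, counts scaled to a common library size, per kilobase; log scale, bars SD, n = 3) of the subunits of 6 groups of proteins in TNF-α and TNF-α+EMO. RPA lines run parallel, MCM2-7 lines spread from a 5.34-fold to an 18-fold range, and ORC lines cross.

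Nucleotide supply held both a very large fall and the 1 gene that did not pass. Tk1 (chromosome 10, 106817601 to 106828884), the cytosolic thymidine kinase of S phase, had 3217, 3097 and 3250 normalized counts with TNF-α and 86.6, 123 and 108 with EMO. The groups were far apart, and Tk1 fell 30.1-fold (log2 fold change -4.91, SE 0.11, edgeR adjusted p = 1.7e-11). Rrm2 and Rrm1, the small and large subunits of ribonucleotide reductase, fell 8.46 and 4.50-fold. Tyms (chromosome 9, 121918947 to 121931564), which makes thymidylate by a route other than Tk1, had 1060, 1140 and 1091 normalized counts with TNF-α and 1121, 1061 and 1077 with EMO. Its groups overlapped fully, at 1097 ± 40.2 and 1086 ± 31.2 (SD, n = 3). The log2 fold change was -0.01 (SE 0.07, edgeR adjusted p = 0.85), and the 95% interval of the fold was 0.892 to 1.10. The estimated fold of each of the other 46 genes lay outside that interval. The 95% intervals of Rfc4 (1.03 to 1.31) and Dbf4 (0.4 to 0.921) nevertheless overlapped it. Tyms per Tk1, compared per length, went from 0.477, 0.533 and 0.486 to 18.7, 12.5 and 14.4. Uhrf1 (chromosome 9, 10738222 to 10757954), which takes part in carrying DNA methylation over to the new strand, had 2495, 2535 and 2586 normalized counts with TNF-α and 235, 254 and 254 with EMO. It fell 10.3-fold without overlap (log2 fold change -3.36, SE 0.07, edgeR adjusted p = 1.6e-11).

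The order of the genes by level changed with the unequal falls. Per length, the 47 genes ran from Gins3 (2.62 CPM per kilobase) through a median of 22.3 to Pcna (183) with TNF-α, and from Cdc6 (0.0782) through 8.11 to Pcna (92.1) with EMO. No gene was below 1 with TNF-α and 8 were with EMO: Cdc6, Pole2, Orc1, Cdc45, Gins3, Pole, Mcm10 and Gins1. In rank from the top, Tk1 went from 7 to 37 and Cdc6 from 29 to 47. Orc2, in the other direction, went from 34 to 8, and Tyms, at 41.7 and 41.3 CPM per kilobase, from 13 to 6. Within proteins made of several subunits, the ratio of the highest to the lowest level per length went from 4.74 to 73.1 for ORC, from 2.07 to 6.76 for RFC, from 9.09 to 14.3 for GINS, from 12.3 to 35.6 for polymerase α with primase and from 1.04 to 3.35 for the 2 listed subunits of polymerase ε. It went from 6.13 to 5.71 for RPA and from 1.65 to 1.14 for ribonucleotide reductase, whose higher subunit was Rrm2 with TNF-α and Rrm1 with EMO. Rrm2 per Rrm1, compared per length, went from 1.57, 1.62 and 1.74 to 0.678, 0.999 and 0.982. The 47 genes together took 4076, 4082 and 4199 CPM in TNF-α replicates 1 to 3 and 1458, 1418 and 1392 CPM in TNF-α+EMO replicates 1 to 3. The share of counts from mitochondrially encoded genes moved alongside, from 3.35 to 3.58% with TNF-α down to 0.363 to 0.399% with EMO, and its part in the result was not tested.

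Of 31 further genes of the pathway, 30 were tested and Dna2 was not analysed here. Of the 30, 24 fell (80.0%, beside 41.4% of all tested genes), 4 rose (13.3%, beside 39.4%) and 2 did not pass, with a median log2 fold change of -2.04. Of them, 18 were lower by over 2-fold (60.0%, beside 27.8%). Pclaf, a PCNA-binding factor, was lowest, with 310, 316 and 390 counts with TNF-α and 0, 1 and 0 with EMO, a ratio of summed counts of 969 with an exact 95% counting interval of 173 to 38299. The 4 that rose were Orc4 (log2 fold change 0.63, SE 0.13), the histone-fold subunits of polymerase ε Pole3 (0.73, SE 0.17) and Pole4 (1.34, SE 0.11), and the polymerase δ subunit Pold4 (0.94, SE 0.08). Mcm9, which works with Mcm8 in repair, had a log2 fold change of -0.22 (SE 0.11, edgeR adjusted p = 0.094), and Chtf8 of -0.04 (SE 0.09, edgeR adjusted p = 0.66). With the listed genes, ORC thus held 3 genes that rose (Orc2, Orc3, Orc4) and 3 that fell (Orc1, Orc5, Orc6), polymerase ε 2 and 2, and polymerase δ 2 and 2.

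Genes of the cell cycle around replication fell in most lists, with exceptions in the nucleotide and CDK inhibitor lists. For comparison, 41.4% of all tested genes fell, 39.4% rose and 27.8% were lower by over 2-fold. Of 10 further nucleotide genes, 7 fell, 2 rose and 1 did not pass (median log2 fold change -1.13). Dctd, which makes dUMP, was lowest at -4.32 (SE 0.12), and the mitochondrial thymidine kinase Tk2 was highest at 1.59 (SE 0.13), opposite in direction to cytosolic Tk1. Dtymk, the kinase acting after both thymidine kinases and Tyms, had a log2 fold change of 0.00 (SE 0.07, edgeR adjusted p = 0.96). All 13 S phase regulators tested fell (E2f1 was not analysed here), from E2f3 (-0.67, SE 0.13) to E2f8 (-6.66, SE 0.28), with a median of -2.19. All 21 mitosis genes tested (Ccnb2 was not analysed here) fell by over 2-fold, from Aurka (-3.02, SE 0.13) to Cenpf (-9.48, SE 0.16), with a median of -5.19. All 13 recombination and repair genes tested (Chek1 was not analysed here) fell, from Palb2 (-0.63, SE 0.15) to Exo1 (-5.77, SE 0.25), with a median of -2.42. Among 7 tested CDK inhibitors and pocket proteins, 4 fell (57.1%), 2 rose (28.6%) and 1 did not pass. Cdkn1a, the p21 inhibitor of cyclin-dependent kinases and of PCNA, had 846, 825 and 849 counts with TNF-α and 10016, 10415 and 13247 with EMO. It rose with a log2 fold change of 3.81 (SE 0.11, edgeR adjusted p = 1.5e-10), while Cdkn2c, a p18 inhibitor of Cdk4 and Cdk6, fell with one of -4.25 (SE 0.16).

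**Figure D5:**
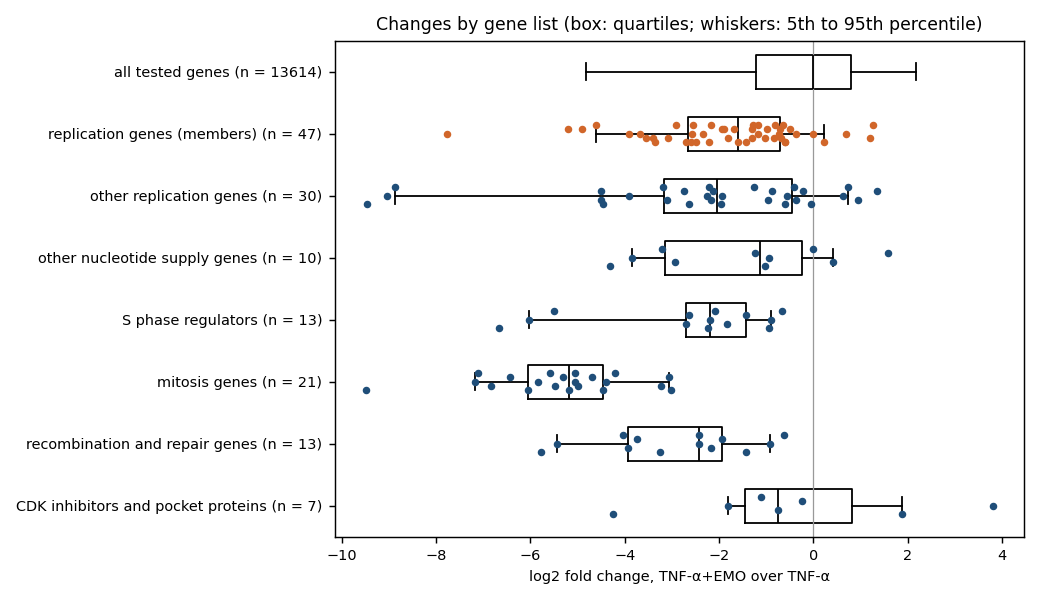
Log2 fold change (TNF-α+EMO over TNF-α, horizontal axis) of all 13614 tested genes, the 47 replication genes (orange points) and other lists (blue points), with boxes for quartiles and whiskers for the 5th to 95th percentile. The median of the replication genes is at -1.59 and that of mitosis genes at -5.19, beside -0.01 for all tested genes.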

How the data were processed

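Paired-end libraries of poly(A) RNA were sequenced by the authors' provider on an Illumina HiSeq 2000. The submitters' processing notes name FastQC, Trimmomatic, HISAT2 and the build Rnor_6.0; the counting program, annotation version and strand setting are not given in the sources used here. The values used are the raw counts per gene that the authors deposited for 34156 genes, with the gene lengths in the same table (another unit, bases). The deposited FPKM values and the authors' comparison (group means, log2 fold changes, p-values and adjusted p-values) were not used.

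Samples were grouped by the treatment in the labels. The 13614 genes reaching 10 counts in 3 or more libraries were scaled by TMM and fitted with the quasi-likelihood test of edgeR 4.0.16 in R 4.3.3, with robust estimation and Benjamini-Hochberg adjustment over all tested genes, at an adjusted p under 0.05 with or without a fold over 2. The study's methods name DEseq; DESeq2 1.42.0 was an alternative. A normalized count is the count divided by the effective library size and brought to the mean size (common biological coefficient of variation 0.121), a level per length is the CPM on that library size per kilobase, and a standard error is the log2 fold change divided by the root of F. Wilson and exact intervals (95%) and the limit of 3 counts cover counting error only. Same-numbered replicates deviated together with correlations of 0.0193, -0.00683 and 0.0676, so the numbers were not taken as pairs.

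The 47 genes and the other lists were chosen with earlier results of these data known. Values are given in every library for the lowest and highest gene by log2 fold change of each role, those that did not pass or went against their role, and Pcna, Cdt1, Gmnn and Uhrf1; Dbf4 was added after its values were seen. In the other lists the lowest, the highest and the replication genes not past the test were to be named; the further genes named there were chosen after their values were seen. Promoter sequences are RefSeq's (GRCr8). Alternatives were other scalings, filters and thresholds, DESeq2, a fit without robust weights, the replicate block, leaving out each library, leaving out overlapping genes and, added after seeing the data, leaving out genes with a library at 3 counts or fewer, the word CCAAT, and E2F words by size of the fall.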

Additional observations from a re-analysis of the deposited data

How the results depend on the processing

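Over 15 alternatives, 687 fits of the 47 genes kept their direction and side of the threshold, 10 lost the call (6 of Rfc4, 4 of Dbf4) and 2 changed sign: the log2 fold change of Tyms, which did not pass in any, was at 0.03 without TNF-α+EMO replicate 2 and 0.01 without replicate 3 (-0.11 to 0.03 on leaving out each library). Rfc4 and Dbf4 also did not pass an adjusted p under 0.01. Cdc6 and Pole2 were tested in 12 alternatives each, since too few libraries reached the count minimum in the others. Scaling by total counts moved the median of all tested genes from -0.01 to -0.12, that of the replication genes to -1.71, their median level per length with TNF-α to 23.2 and the number of other nucleotide genes that rose to 1. Leaving out 1 library at a time gave a median of -1.63 to -1.41 (-1.41 without TNF-α replicate 3). It gave 39 to 42 replication genes lower, 3 to 4 higher and 30 to 33 lower by over 2-fold. Of other nucleotide genes 1 to 2 were higher, and of macrophage markers 1 to 2 (2 with all libraries). Cdc6 and Pole2 were not testable without any 1 of the TNF-α libraries. Dbf4 did not pass without TNF-α replicate 1 or 3, or without TNF-α+EMO replicate 2. These 3 genes make up the drop in genes lower. The cause of the other changes was not tested, apart from fewer genes being testable. The share of genes with an E2F word was 22.0% with either word alone and 58.5% with 7-letter words. The median was -1.59 without genes that overlap another and -1.51 without Cdc6, which has a library at 3 counts or fewer. With the replicate number as a block, 42 genes were lower, 4 higher, 31 lower by over 2-fold and the median was -1.59, and no call changed. Genes near 3 counts (Cdc6, Pclaf) are known only to within their counting intervals.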
